A study of Homo sapiens with 6 samples.

Results

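The genes described here are 10 parts of the retinoic acid pathway, chosen by name: the receptors RARA, RARB, RARG, RXRA and RXRB, the clearing enzymes CYP26A1 and CYP26B1, the carriers CRABP1 and CRABP2, and the receptor tyrosine kinase RET. They are 10 of the 60676 genes in the count table. SK-N-BE, a human neuroblastoma line, was differentiated in 10 µM retinoic acid to day 1.5, and RNA was pulled down from its extract with biotinylated antisense probes and streptavidin beads. One probe set targeted CyCoNP, a cytoplasmic long non-coding RNA listed as LINC02381, and a control set targeted the bacterial gene LacZ, giving 2 CyCoNP pull-down libraries (CyCoNP PD), 2 LacZ pull-down libraries (LacZ PD) and 2 of the unselected extract (input). All cells belonged to this line and all had received retinoic acid, so no library shows the pathway without its ligand and induction was not tested. The paper calls the libraries biological duplicates. The probes were applied to the extract and not to the cells.

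Retinoic acid is held in the cell by the carriers CRABP1 and CRABP2 and binds RAR receptors in the nucleus, which sit on DNA paired with RXR receptors and switch target genes on when ligand arrives. CYP26 enzymes oxidise retinoic acid and thereby end the signal, and RARB, CYP26A1 and CRABP2 are themselves classical targets of the receptors. Neuroblastoma cells stop dividing and grow neurites in retinoic acid, and RET, the signalling receptor for GDNF family ligands, is known to rise in this process.

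The DNA element through which RAR and RXR act is a repeat of a hexamer, and it is shown because RARB and CYP26A1 are known to carry it in their promoters. The consensus spelling searched was AGGTCA. A common variant searched beside it was AGTTCA. The spelling GGGTCA was searched as well. Last among the spellings was GGTTCA, and any pairing of these 4 counted as a direct repeat. Spacers of 5, 2 or 1 bases were allowed, on both strands, in the RefSeq windows of 250 bases before to 50 after each start site in GRCh38.p14. All 10 members matched, with 19 windows. The repeat with a spacer of 5 occurred in 2 of these 19 windows, against 0.0883% of the 35116 windows of all genes, and spacers of 2 and 1 occurred in none of the 19, against 0.0399% and 0.131%. The 2 stretches follow 5′ to 3′ on the plus strand, with the hexamers in capitals.
RARB, chr3:25428204-25428233: gggtagGGTTCAccgaaAGTTCActcgcat
CYP26A1, chr10:93073797-93073826: taaagaTGAACTttgggTGAACTaattgtc
The RARB repeat read on the plus strand at bases -53 to -37 from its start site, and the CYP26A1 repeat read on the minus strand at bases -90 to -74. These matches are letters in a window and say nothing of occupancy.

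The probes are the other sequences that matter, since they decide what a pull-down catches. All 22 CyCoNP probes, of 20 bases each, were found whole, as complement, among the 5 LINC02381 transcripts of GENCODE v44, and 0 of the 5 LacZ probes were. The longest exact complement of any CyCoNP probe to a member's canonical transcript was 9 to 11 bases, where the median of 12528 tested genes was 10. For the LacZ probes it was 7 to 9 bases, against a median of 8. The lines below give a probe that matches CyCoNP whole, and the probes with the longest match to RET, RARG and CRABP2, with the complementary bases in capitals.
CyCoNP probe 2, LINC02381: GGGAACTGGAGGGAGAGGTC
CyCoNP probe 18, RET: tGGCCTTGGTGTgataagaa
CyCoNP probe 14, RARG: tcaGCAGCTTTGAGgctgat
CyCoNP probe 17, CRABP2: tcaacttTGACCCCCAaatg
A stretch of 11 bases, the longest among the members, was reached or passed by 21.9% of the tested genes, and one of 9 bases, the length in CRABP1, CRABP2, RARA and RXRB, by 87.9%. A longer transcript offers more positions to match, and the RET transcript held 5617 bases against 738 in CRABP1.

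The libraries held 717905 and 791970 counts in input, 1512148 and 514882 in CyCoNP PD, with 18870 and 140115 in LacZ PD. A count of 0 allows a level up to that of 3 counts, which was 1.98 to 5.83 CPM (counts scaled to a common library total) in input and CyCoNP PD but 159 CPM in LacZ PD 1 and 21.4 CPM in LacZ PD 2. CyCoNP itself took 27.9 and 49.2 CPM of input, 7729 and 6811 CPM of CyCoNP PD, with 53.0 and 142.7 CPM of LacZ PD. All 12 neuroblastoma markers listed, among them MYCN, STMN2 and CHGB, had counts in both inputs and summed to 3856 and 4078 CPM. Of 12 markers of other cell types, 5 were at 0 in every library (among them SOX10, PTPRC, PECAM1 and VWF), and the rest, led by the collagens COL1A1 and COL1A2, summed to 42.8 to 467 CPM over the 6 libraries. In bulk RNA, fewer cells that express a gene and less of its RNA per cell cannot be told apart. Intervals on single values are 95% Wilson intervals. They and the limits reflect the counting of reads alone, and reads copied by PCR and not tagged as molecules are not independent.

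The carriers dominated the pathway's RNA. In the inputs CRABP1 stood first of the 10 genes and CRABP2 second, both by CPM and by CPM per kilobase of transcript, and together with RET they held 89.5% to 96.0% of the members' counts in each of the 6 libraries. CRABP1 (ENSG00000166426, chromosome 15 from 78340353 to 78348225, plus strand, GRCh38), which holds retinoic acid in the cytoplasm and passes it on to clearing enzymes, had 305 and 451 counts in input, 801 and 257 in CyCoNP PD, with 9 and 135 in LacZ PD. These were 425 and 569 CPM, 529.7 and 499 CPM, and 477 and 963 CPM. The groups overlapped, and the highest value was in LacZ PD 2 (interval 814 to 1140).

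CRABP2 (ENSG00000143320, chromosome 1 from 156699606 to 156705816, minus strand), which carries retinoic acid to the receptors in the nucleus, had 171 and 198 counts in input, 739 and 178 in CyCoNP PD, with 11 and 58 in LacZ PD. Its levels were 238 and 250.0 CPM in input, 489 and 346 CPM in CyCoNP PD, with 583 and 414 CPM in LacZ PD. All 4 pull-down libraries lay above both inputs, whichever probes had been used. CRABP2 was the only one of the 9 tested members whose CyCoNP PD libraries both lay above both inputs, and 15.9% of all tested genes did so. The same held for LacZ PD, where 10.6% of all tested genes did so. Against the input of the same replicate number, CRABP2 was recovered at a CPM ratio of 2.05 (exact interval from the counts 1.74 to 2.44) and 1.38 (1.12 to 1.70) with CyCoNP probes, and of 2.45 (1.20 to 4.49) and 1.66 (1.21 to 2.23) with LacZ probes. The ratio of CyCoNP PD to LacZ PD was 0.838 in replicate 1 and 0.835 in replicate 2, and both intervals included 1. On CPM a difference in CRABP2 recovery between the probe sets was thus not detectable.

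**Figure D1:**
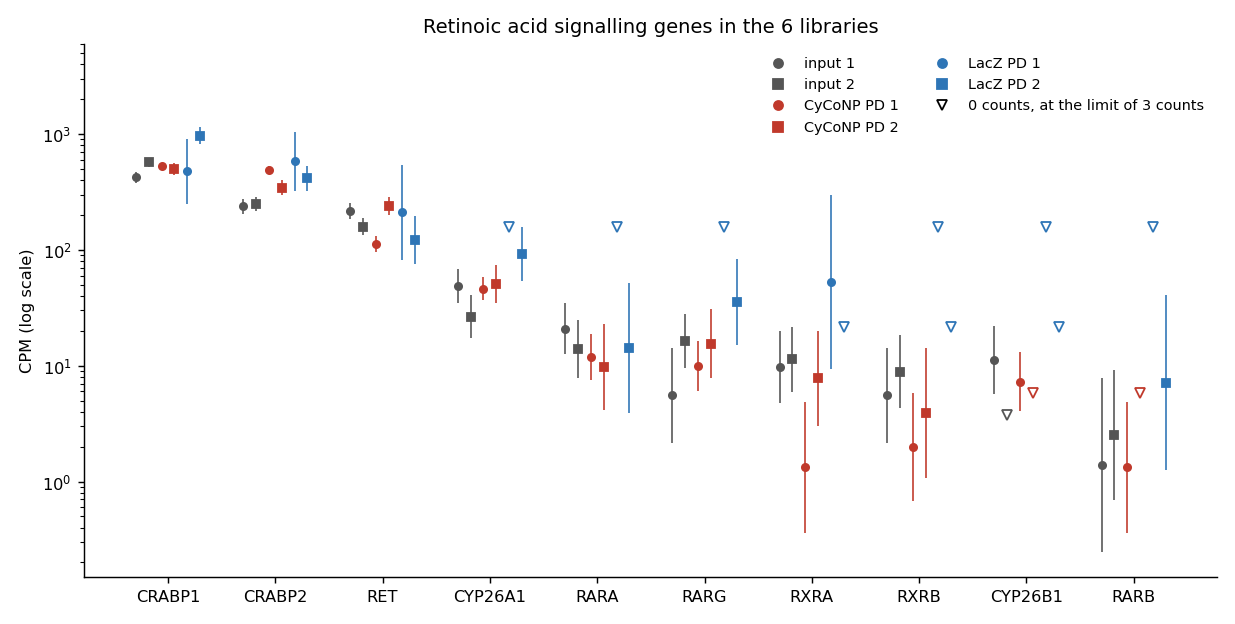
CPM on a log axis for the 10 genes, ordered by mean input level, in each of the 6 libraries, with 95% Wilson intervals. Open triangles mark libraries with 0 counts, drawn at the level of 3 counts. CRABP1, CRABP2 and RET stand above 100 CPM in every library, whereas the receptors lie under the LacZ PD 1 limit of 159 CPM.

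RARA, RARB and RARG encode the receptors that bind the acid itself, and all 3 were scarce. RARA (ENSG00000131759, chromosome 17 from 40309180 to 40357643, plus strand) had 15 and 11 counts in input, 18 and 5 in CyCoNP PD, with 0 and 2 in LacZ PD. Both CyCoNP PD libraries, at 11.9 and 9.71 CPM, lay under both inputs, at 20.9 and 13.9 CPM. RARG (ENSG00000172819, chromosome 12 from 53210567 to 53232980, minus strand) had 4 and 13 counts in input, 15 and 8 in CyCoNP PD, with 0 and 5 in LacZ PD, with overlapping groups. RARB (ENSG00000077092, chromosome 3 from 24687887 to 25597932, plus strand) had 1 and 2 counts in input, 2 and 0 in CyCoNP PD, with 0 and 1 in LacZ PD. Its total of 6 was below the minimum of 10 for testing, in cultures that had received retinoic acid for 1.5 days. No level of RARB was above 3 counts, and no change in it was detectable at this depth.

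The makeup of the RAR counts was not settled by the inputs. RARA supplied 15 of 20 RAR counts in input 1 (75%, interval 53.1% to 88.8%) and 11 of 26 in input 2 (42.3%, 25.5% to 61.1%). RARG supplied 4 of 20 and 13 of 26, and RARB 1 of 20 and 2 of 26. RARA reads cannot be told from its opposite-strand neighbour RARA-AS1 (12 counts in all) where strand was not used, and no annotated gene overlaps RARG.

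RXRA and RXRB encode the partners that RAR needs on DNA. RXRA (ENSG00000186350, chromosome 9 from 134317098 to 134440585, plus strand) had 7 and 9 counts in input, 2 and 4 in CyCoNP PD, with 1 and 0 in LacZ PD. RXRB (ENSG00000204231, chromosome 6 from 33193588 to 33200665, minus strand) had 4 and 7, 3 and 2, and 0 and 0. Like RARA, both lay lower in each CyCoNP PD library than in each input, which made 3 of the 9 tested members, and 20.3% of all tested genes did so. In LacZ PD only RXRB lay below both inputs, as 33.7% of all tested genes did. The 0 counts of RXRB in LacZ PD allow up to 159 and 21.4 CPM, above its input levels of 5.57 and 8.84 CPM, so a loss there was not detectable. RXRB overlaps SLC39A7 on the opposite strand, which had 99 counts.

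The depth of LacZ PD sets what can be read from these receptors. At their mean input level RARA would give 0.328 counts in LacZ PD 1 and 2.44 in LacZ PD 2, and RXRA 0.199 and 1.48. The carriers would give 9.38 and 69.7 counts (CRABP1) and 4.61 and 34.2 (CRABP2), where 9 and 135 and then 11 and 58 were counted. Only for CRABP1, CRABP2 and RET did this expected number exceed 3 in both LacZ PD libraries.

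CYP26A1, the enzyme that removes retinoic acid in most cells exposed to it, followed RET in the order of levels. CYP26A1 (ENSG00000095596, chromosome 10 from 93073475 to 93077885, plus strand) had 35 and 21 counts in input, 70 and 26 in CyCoNP PD, with 0 and 13 in LacZ PD. This was 48.8 and 26.5 CPM, 46.3 and 50.5 CPM, and 0 and 92.8 CPM. At 0.710 expected counts the 0 in LacZ PD 1 was not informative. In replicate 2 the level was above input with both probe sets, by a CPM ratio of 1.90 (1.03 to 3.56) with CyCoNP and 3.50 (1.61 to 7.32) with LacZ, whereas in replicate 1 the CyCoNP ratio was 0.95 (0.624 to 1.47).

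CYP26B1, a second clearing enzyme, was found in replicate 1 alone. CYP26B1 (ENSG00000003137, chromosome 2 from 72129238 to 72147862, minus strand) had 8 counts in input 1 and 11 in CyCoNP PD 1, or 11.1 and 7.27 CPM, and 0 in input 2, CyCoNP PD 2 and both LacZ PD libraries. A count of 0 allowed up to 3.79 CPM in input 2 and 5.83 CPM in CyCoNP PD 2, both below the levels of replicate 1.

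RET (ENSG00000165731, chromosome 10 from 43077064 to 43130351, plus strand) had 155 and 126 counts in input, 170 and 123 in CyCoNP PD, with 4 and 17 in LacZ PD. The levels were 216 and 159 CPM, 112 and 239 CPM, and 212 and 121 CPM. The CyCoNP PD libraries held both the lowest and the highest value of the 6, so the groups overlapped fully. Against the input of its own number, RET was lower in CyCoNP PD 1, at a CPM ratio of 0.521 (0.416 to 0.652), and higher in CyCoNP PD 2, at 1.50 (1.16 to 1.94). These 2 intervals do not overlap and lie on opposite sides of 1, and the LacZ PD ratios of 0.982 and 0.763 had intervals that included 1.

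**Figure D2:**
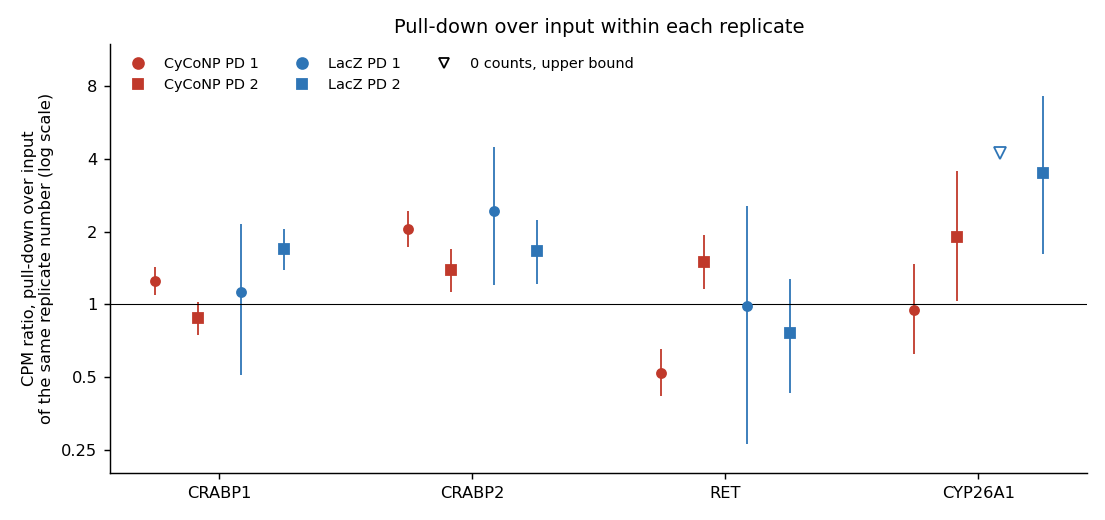
CPM in a pull-down library over CPM in the input of the same replicate number, on a log axis, with exact 95% intervals from the counts, for 4 members. Circles are replicate 1, squares replicate 2, and the open triangle is the upper bound for CYP26A1 at 0 counts in LacZ PD 1. CRABP2 lies above 1 with both probe sets, and RET lies on both sides of 1 within CyCoNP PD.

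The order of levels in input was CRABP1, CRABP2, RET, CYP26A1, RARA, RARG, RXRA, RXRB, CYP26B1 and RARB by mean CPM. Per kilobase of canonical transcript the order was the same but for RXRB, which moved above RXRA. CRABP1 at 576 and 772 CPM per kilobase, CRABP2 at 245 and 257, RET at 38.4 and 28.3, and CYP26A1 at 23.0 and 12.5 did not overlap with their neighbours. CYP26A1 and RARA, at 6.38 and 4.24, did not overlap either, whereas from RARA down the 2 input values of each gene overlapped in range with those of its neighbour. CRABP1 ranked at the 98.3rd percentile by CPM of 18861 genes detected in input, RARA at the 69.1st and RARB at the 28.3rd. The genes whose normalized profile over the 6 libraries lay nearest to that of CRABP1 were PFDN5, KRTCAP2 and RBX1, at Euclidean distances of 0.627, 0.628 and 0.675 on the log2(CPM + 1) scale among 4315 genes.

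The question put to the pull-down is which RNAs are recovered with CyCoNP beyond the extract and the control. The test was edgeR's quasi-likelihood F test, and a call needed an adjusted p under 0.05 and a log2 fold change beyond 1 in size. Of the 10 members, 9 passed the count minimum, and 0 were enriched or depleted in CyCoNP PD against input, where 0.119% of the 12565 tested genes were enriched and 0.00796% depleted. In LacZ PD against input and in CyCoNP PD against LacZ PD 0 members were called either way, beside 0% of all genes in each direction. With 0 genes called at all, the lack of a called member carries no information in these comparisons. DESeq2 gave an adjusted p for 4, 3 and 4 members in the 3 comparisons and called 0 of them, where it called 1.22% of 4770 genes enriched and 0.294% of them depleted for CyCoNP PD over input, 0.442% and 3.9% of 1359 genes for LacZ PD over input, and 1.17% and 0.0653% of 3065 genes between the pull-downs. At an unadjusted p under 0.05, 0 of the 9 members passed in any of the 3 comparisons with either tool, while over all genes 387 were higher and 291 lower in CyCoNP PD against input. For LacZ PD against input those numbers were 93 and 789, and for CyCoNP PD against LacZ PD 595 and 58.

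CRABP2 had the highest log2 fold change of the members in CyCoNP PD against input, 0.84 (standard error 0.59, adjusted p = 1.00 from edgeR with Benjamini-Hochberg adjustment). In LacZ PD against input its value was 0.48 (standard error 0.61), and between the pull-downs it was 0.36 (0.61), a sign that turned to -0.22 when libraries were scaled by size alone. CRABP1 had values of 0.10 (0.66), 0.19 (0.68) and -0.09 (0.68) in the same order of comparisons. With errors of this size a difference of the log2 size seen for CRABP2 cannot be told from none.

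RET had -0.04 (0.61), -0.76 (0.68) and 0.73 (0.68), and CYP26A1 0.45 (0.74), 0.58 (0.84) and -0.13 (0.83). The receptors were RARA at -0.57 (0.81), RARG at 0.19 (0.91), RXRA at -1.36 (1.24) and RXRB at -1.30 (1.27) in CyCoNP PD against input. CYP26B1 had -0.19 (1.58) there. CYP26B1 and RXRB had 0 counts in both LacZ PD libraries. In comparisons with LacZ PD their fitted edgeR values therefore rest on the prior count and are not given.

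The median log2 fold change of the 9 tested members was -0.04 in CyCoNP PD against input, -0.71 in LacZ PD against input and 0.24 between the pull-downs. Over all 12565 genes it was -0.01, -0.68 and 0.64, so the values against LacZ PD were displaced for genes at large. With library size alone the LacZ PD median of all genes was -0.34, and among the 1103 genes with at least 500 counts it was -0.33 with the TMM factors. Relative to the median of all genes, CRABP1 and CRABP2 thus lay higher in LacZ PD, by no tested amount, and RET, at -0.76, lay near it. CRABP1, CRABP2 and RET had totals of 1958, 1355 and 595 counts, so the median of -0.33 is the closer reference. Beside it CRABP1 and CRABP2 lay higher and RET lower, and these differences were not tested.

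**Figure D3:**
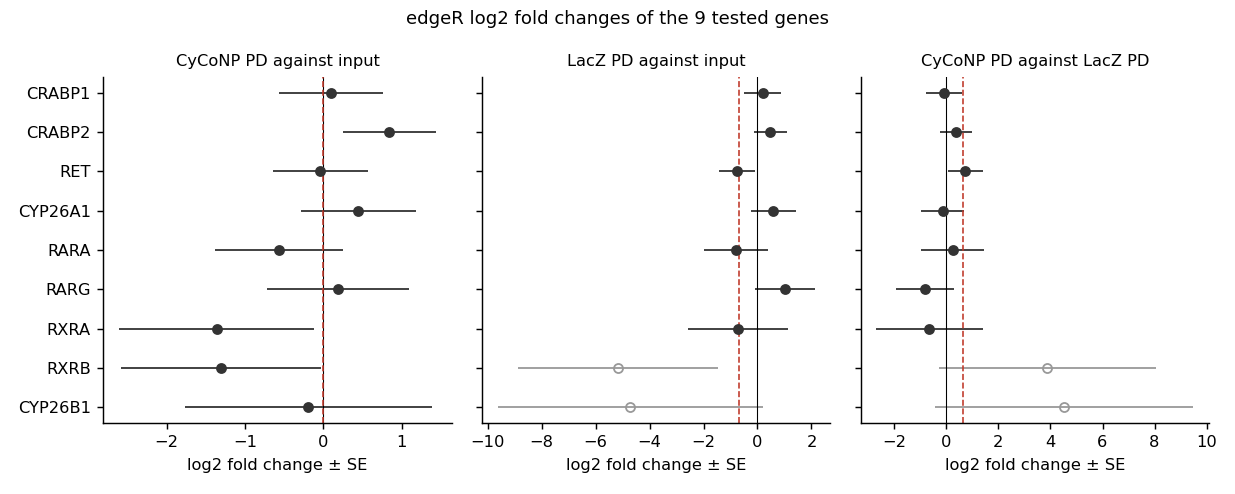
Fitted log2 fold changes with standard errors for the 9 tested members in the 3 comparisons; the red dashed line is the median of all tested genes and open circles mark genes at 0 counts in both LacZ PD libraries. In CyCoNP PD against input the values lie between -1.36 and 0.84, and none was called.

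With the replicate number as a block, more of the genome was called but still 0 members. In CyCoNP PD against input 1.53% of tested genes were then enriched and 0.732% depleted, in LacZ PD against input 0.127% and 0.796%, and between the pull-downs 0.724% and 0.0478%. CRABP2 stood at 0.84 (standard error 0.54, adjusted p = 0.641 from edgeR) in CyCoNP PD against input under the block.

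The rest of the pathway was read from lists of related genes, none of whose members was called in the edgeR test without the block. Of 15 genes for retinoid uptake, synthesis and storage, 9 were at 0 in every library, among them ALDH1A1, ALDH1A2 and ALDH1A3, which make retinoic acid from retinal, and LRAT, which stores retinol (named after their values were seen). A lack of counts limits them to the levels of 3 counts given above. RDH11, a retinal reductase, took 94.7 and 70.7 CPM of input, with 56.9 and 75.7 in CyCoNP PD.

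Among 11 further receptors, RXR partners and clearance genes, 6 were tested and 3 were at 0 everywhere. FABP5, which delivers retinoic acid to PPARD in place of the RARs, had 104 and 207 CPM in input and 272 and 270.0 CPM in CyCoNP PD, with a log2 fold change of 0.83 (standard error 0.65). The nuclear receptors THRA and PPARD took 63.0 and 29.0 CPM of the inputs on average. All 11 coregulators were tested, with a median of -0.44 in CyCoNP PD against input beside -0.01 for all genes, and none was called. TBL1XR1, a subunit of the corepressor complex, had 75 and 369 counts in input, 284 and 79 in CyCoNP PD, with 2 and 5 in LacZ PD. In LacZ PD against input TBL1XR1 had a log2 fold change of -2.92 (standard error 0.92, adjusted p = 0.582 from edgeR), and with the block -2.97 (standard error 0.78, adjusted p = 0.0241), where it was called depleted. MED1, the Mediator subunit that receptors contact, averaged 56.5 CPM in input.

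Of 18 genes known as retinoic acid induced, 5 were at 0 in every library and 9 were tested, with a median of -0.19 in CyCoNP PD against input. MEIS2 and MEIS1, homeobox factors that rise with retinoic acid in many cells, were the most abundant, and NR2F2, an orphan receptor, followed at 29.3 CPM on average. MEIS2 had 123 and 164 CPM in input, 67.5 and 35.0 in CyCoNP PD, with 53.0 and 42.8 in LacZ PD, so that every pull-down library lay below both inputs. Of all tested genes, 20.3% had both CyCoNP PD libraries below both inputs, and 33.7% had both LacZ PD libraries below them. MEIS2 had a fitted value of -1.40 on the log2 scale (standard error 0.63, adjusted p = 0.896 from edgeR) in CyCoNP PD and -2.04 (standard error 0.78, adjusted p = 0.631) in LacZ PD, and neither passed. MEIS1 had 111 and 124 CPM in input and 76.1 and 101 in CyCoNP PD.

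The genes that work with RET were mostly at few counts. Of 12, 3 were at 0 everywhere and 5 were tested. SHC1, an adaptor of active RET, averaged 81.3 CPM in input, GDNF, the ligand, 12.9 CPM, and FRS2, another adaptor, 12.2 CPM. GFRA1, the GDNF co-receptor that RET needs to signal, had 47 counts in CyCoNP PD 1 and 0 in the other 5 libraries. GFRA1 had an adjusted p of 0.561 without the block and 0.0220 with it (edgeR), so its call with the block rests on CyCoNP PD 1.

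The libraries numbered 1 and 2 were also compared, which was added after the data were seen. In the edgeR fit with the block, 560 genes were higher in replicate 1 (4.46%) and 102 lower (0.812%), and 0 of the 9 members were called. Of 37 tested related genes, 2 were called (5.41%), a share near the 5.27% of all genes. CYP26B1 came nearest, with a log2 difference of 5.36 (standard error 1.97, adjusted p = 0.0964 from edgeR), resting on its 8 and 11 counts in replicate 1 and 0 elsewhere. CRABP1, CRABP2 and RET had -0.62 (0.48), 0.05 (0.46) and -0.30 (0.47). Among the related genes DHRS3, which turns retinal back to retinol and is induced by retinoic acid, was higher in replicate 1 by 1.65 (standard error 0.50, adjusted p = 0.0216 from edgeR), and by 1.61 in DESeq2, where it was not called (adjusted p = 0.140). DHRS3 had 89.1, 286 and 265 CPM in input 1, CyCoNP PD 1 and LacZ PD 1, above the 51.8, 42.7 and 57.1 CPM of the libraries numbered 2. GFRA1 was also called, at 5.82 (adjusted p = 0.0338 from edgeR), on CyCoNP PD 1 alone, and DESeq2 gave it no adjusted p.

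Some markers of other cell types differed between the replicate numbers, in both directions. The summed level of the 12 markers of other cell types was 467, 242 and 265 CPM in the libraries numbered 1 and 44.2, 69.9 and 42.8 CPM in those numbered 2. COL1A1 had 192, 186 and 4 counts in replicate 1 against 10, 3 and 1 in replicate 2, a log2 difference of 4.26 (standard error 0.59, adjusted p = 1.55e-10 from edgeR), and COL1A2 differed by 5.86 (standard error 0.76). LUM, another mesenchymal marker, had 8, 8 and 0 counts in replicate 1 against 15, 20 and 2 in replicate 2, with a value of -1.92 (standard error 0.71, adjusted p = 0.0994 from edgeR) that did not pass. EPCAM, at 3.79, 5.83 and 7.14 CPM on average in input, CyCoNP PD and LacZ PD, was lower in replicate 1, at -5.69 (standard error 1.74). It had 0 counts in the libraries numbered 1, so the size of this value rests on the prior count. DESeq2 gave EPCAM no adjusted p. Of the neuroblastoma markers, CHGA, a neuroendocrine granule protein, was also lower in replicate 1, at -1.68 (standard error 0.48). The part of these differences in the CYP26B1 and DHRS3 values was not tested.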

How the data were processed

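RNA from 6 pull-down and input libraries was sequenced as PCR-amplified cDNA on Nanopore flow cells. Per the methods, more PCR reactions were pooled for a pull-down library than for an input library. The authors basecalled and length-filtered the reads, aligned them to GRCh38 (minimap2 2.24-r1122 in the submitters' processing notes) and used Bambu to assign them to the genes of Ensembl. The deposited counts per gene are whole numbers without normalization. The authors deposited CPM as well, which differed from counts over library total by at most 5.1e-11. How ambiguous reads were divided, and whether strand was used, is not given in the sources used here.

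The 12565 genes with a total of 10 counts or more entered edgeR 4.0.16 (R 4.3.3) with TMM normalization, the quasi-likelihood F test and all groups in one fit, with Benjamini-Hochberg adjustment over all tested genes. The paper used DESeq2, which is an alternative here (version 1.42.0). A standard error is the log2 fold change over the square root of F. The fit was tested on simulated counts. Same-numbered libraries deviated together (correlations of 0.257 to 0.449, of which 3 are distinct). The numbers were therefore taken as pairs in the CPM ratios and in the fits with the replicate block. No source says that a number marks a shared extract, and the main edgeR fit used no block. Positions come from GENCODE v44, which held 60357 of 60676 rows, and promoter windows from RefSeq, GRCh38.p14. Probe sequences come from the study's supplement.

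The members and gene lists were chosen with earlier results of these data known. Named were all 10 members, each called gene of the other lists, the 3 most abundant genes of a list in input, and the nearest profiles to the member with most counts. Some genes under this rule are not reported here. DHRS3, MEIS2 and RDH11 fall under that rule, and the markers EPCAM and CHGA were named after their values were seen. Replicates of a group were separate libraries, with a chi-square per degree of freedom of 4.11 to 18.4 between them. Alternatives were other scalings, DESeq2, other count filters, fitting only the groups compared, the replicate block and leaving out each library.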

Additional observations from a re-analysis of the deposited data

How the results depend on the processing

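No member was called in any comparison, by edgeR or by DESeq2, under any of the 14 alternatives in which it was tested. With only the 2 groups compared, 0 genes at all were called in CyCoNP PD against input. The lack of a called member in that setting therefore carries no information. The same holds wherever a fit called 0 genes. Among these were LacZ PD against input and the comparison of the pull-downs in edgeR without the block. The smallest adjusted p of a member in an alternative was 0.641 in CyCoNP PD against input, 0.545 in LacZ PD against input and 0.795 between the pull-downs. Without LacZ PD replicate 2, CYP26A1 had a log2 fold change of 8.14 between the pull-downs, at 0 counts in LacZ PD 1. The median of all genes in that setting was 4.55. DESeq2 gave an adjusted p for only 4, 3 and 4 members. Between the pull-downs, edgeR without the block did not call even CyCoNP itself, at CPM ratios of 146 and 47.7 over LacZ PD. With 2 libraries per group, and 18870 counts in LacZ PD 1, differences of the members could go uncalled. In comparisons with LacZ PD this held for large differences too.

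Counts over all genes depended on the setting, and the cause was not tested. Genes enriched in CyCoNP PD against input were 15, and were 6 with library size alone, 58 with DESeq2, 99 without a count filter, 0 with only the 2 groups compared (368 higher at an unadjusted p under 0.05 in edgeR), 192 with the replicate block and 87 with the block in DESeq2, and from 0 to 103 when a library was left out. Depleted genes were 1, and were 0, 14, 27, 0, 92 and 35 in the same settings, 0 with edgeR's filterByExpr, and 0 to 18 without a library. For LacZ PD against input the enriched genes were 0, and were 6 with DESeq2, 7 without a filter, 5 with only the 2 groups, 16 with the replicate block, 9 with the block in DESeq2 and 0 to 11 without a library. Depleted genes were 53, 29, 17, 100 and 71 there, and 0 to 18. Between the pull-downs enriched genes were 0, and were 1 with library size alone, 36 with DESeq2, 59 without a filter, 57 with only the 2 groups, 91 with the replicate block, 52 with the block in DESeq2 and 0 to 57 without a library. Depleted genes were 2, 3, 4, 6 and 4 from DESeq2 on, and 0 to 3. Leaving out LacZ PD replicate 1 or replicate 2, edgeR gave 0 genes enriched in CyCoNP PD against input, although 369 and 380 genes had an unadjusted p under 0.05 in that direction. Where 0 genes were depleted in that comparison, 324 had such a p with library size alone, 193 with filterByExpr and 327 with only the 2 groups.

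Uncalled member values changed sign in some settings. With the replicate block in DESeq2, CYP26B1 had 0.52 (standard error 3.96) in LacZ PD against input and -0.66 (3.95) between the pull-downs. Their signs were opposite to those in edgeR without the block. CYP26B1 had 0 counts in both LacZ PD libraries, so these values and their signs measure no change. CRABP1 turned to 0.060 between the pull-downs with the replicate block in edgeR. With library size alone, RARA turned to -0.12 and CRABP2 to -0.22 between the pull-downs. When a library was left out, log2 fold changes in CyCoNP PD against input ran from -0.43 to 1.28 for RARG, -4.30 to 4.43 for CYP26B1, -0.17 to 0.44 for CRABP1 and -0.62 to 0.41 for RET. In LacZ PD against input they ran from -5.99 to 1.99 for RARG, -5.95 to 1.15 for RXRA, -7.68 to 1.14 for CYP26A1 and -1.23 to 0.75 for CRABP1. Between the pull-downs they ran from -0.12 to 6.03 for RARA, -1.27 to 6.19 for RARG, -2.51 to 4.58 for RXRA, -0.69 to 8.14 for CYP26A1 and -0.66 to 1.35 for CRABP1. Leaving out LacZ PD replicate 2, so that the shallow LacZ PD 1 stood alone, gave the lowest values of RARG, CYP26A1 and CRABP1 in LacZ PD against input and the highest of RARA, RARG, CYP26A1 and CRABP1 between the pull-downs. The opposite ends of these ranges came without LacZ PD replicate 1, but for RARG in LacZ PD against input (without input replicate 2). Without LacZ PD replicate 2 the median of all genes was itself -4.52 in LacZ PD against input and 4.55 between the pull-downs. RARA, RARG and CYP26A1 had 0 counts in LacZ PD 1, RXRA 0 in LacZ PD 2, and CYP26B1 0 in input 2 and CyCoNP PD 2. Ends of ranges in which such a library stood alone for its group rest on the prior count and measure no change. CRABP2 kept a value above 0 in both comparisons with input in every setting, from 0.54 to 1.1 in CyCoNP PD without a library. The difference between replicate numbers, added after the data were seen, gave 222 genes higher and 41 lower with DESeq2 in place of 560 and 102, and 0 members in each of its 4 alternatives.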
